A study of Mus musculus with 14 samples.

Results

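The interferon-stimulated genes described here are a list of 39 mouse genes whose transcription is known to rise when a cell receives an interferon signal. The list is one of gene names and uses no measured value, although it was chosen with earlier results of these data known. All 39 were among the 56941 genes of the count table and among the 19145 genes that averaged 10 counts or more and were tested. The counts come from bulk RNA sequencing of aortic valve leaflets from 14 mice, with 1 library for each mouse. All mice were wild-type C57BL/6J males (C57BL/6 in the labels), about 8 weeks old at the start, and all of them ate the Breslow Western Diet, a cholesterol-raising diet, so the control mice carried that challenge too. The 4 Ctrl mice were otherwise untreated. The 2 LY mice received LY272015, which blocks the serotonin receptor HTR2B, at 3 mg/kg. The 4 AngII mice received angiotensin II, a peptide hormone that raises blood pressure, at 1000 ng/kg/min from an implanted pump for 28 days. The 4 AngII+LY mice received both. The labels place the AngII and AngII+LY mice 48 hours after removal of the pump, whereas the study describes pump removal for a subset of mice. The labels of some dosed mice carry a compound number next to LY272015, such as LY272016, and these mice were kept in the group that their titles give. No group was given interferon or infected. The valves were dissected whole, so each value is a mean over interstitial, endothelial, immune and other cells.

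Interferons are secreted proteins that warn cells of infection. Type I interferons signal through a receptor made of IFNAR1 and IFNAR2, and the kinases bound to it activate STAT2, which with IRF9 forms part of a complex that binds the interferon-stimulated response element (ISRE) upstream of target genes. Interferon gamma, the type II interferon made by T and NK cells, signals through IFNGR1 and IFNGR2 to a shorter element called GAS. In blood vessels and heart valves such genes are expressed at a basal level by resident and immune cells. The 39 members fall into transcription factors of the pathway (Irf7, Irf9, Stat2), sensors of foreign nucleic acid (Ifih1, Dhx58, Zbp1), RNA-binding IFIT proteins (Ifit1, Ifit2, Ifit3, Ifit3b), the OAS family, whose active enzymes make the oligoadenylates that switch on RNase L (Oas1a, Oas2, Oas3, Oasl1, Oasl2), the antiviral GTPases Mx1 and Mx2 with the nucleotide enzymes Rsad2 and Cmpk2, the ubiquitin-like modifier Isg15 with Usp18, which removes it, and the ligases Trim25 and Herc6, the membrane restriction factors Ifitm1, Ifitm3 and Bst2, the GTPases of the GBP and IRG families (Gbp2, Gbp3, Gbp5, Gbp7, Ifi47, Igtp, Irgm1), and 6 further genes (Ifi44, Ifi27, Ifi35, Rtp4, Parp14, Xaf1).

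The ISRE is the element known for this class of genes, and the promoters of a few members that hold its letters are shown before the measurements. RefSeq windows of 250 bases before to 50 bases after the gene start, from build GRCm38.p6, were at hand for 30 of the 39 members, those other than Mx1, Mx2, Oas2, Usp18, Dhx58, Ifi27, Rtp4, Zbp1 and Parp14. The ISRE letters, GAAA followed by any 2 bases and GAAA on either strand, were in 17 of these 30 windows (56.7%) and in 3.44% of all 32851 windows of the same length. The GAS letters, TTC followed by any 3 bases and GAA, were in 8 of the 30 windows (26.7%) and in 8.3% of all windows. A match of letters is a description of the sequence and shows no binding. The stretches below are printed 5′ to 3′ on the strand of the gene, with capitals for the ISRE letters (read as TTTC, any 2 bases and TTTC where the element lies on the opposite strand), and the coordinates are those of build GRCm39, where the whole window had 1 match.
Ifit1 (chr19:34618155-34618243, plus strand): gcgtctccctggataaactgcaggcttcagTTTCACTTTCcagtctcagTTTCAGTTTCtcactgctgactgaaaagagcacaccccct
Ifit3 (chr19:34560743-34560846, plus strand): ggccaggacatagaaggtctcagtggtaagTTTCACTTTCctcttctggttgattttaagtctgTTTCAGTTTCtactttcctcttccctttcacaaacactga
Isg15 (chr4:156285302-156285383, minus strand): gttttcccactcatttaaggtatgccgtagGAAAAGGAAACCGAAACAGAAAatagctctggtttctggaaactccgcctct
Oas1a (chr5:121045589-121045638, minus strand): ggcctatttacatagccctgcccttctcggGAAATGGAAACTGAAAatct
Bst2 (chr8:71990201-71990276, minus strand): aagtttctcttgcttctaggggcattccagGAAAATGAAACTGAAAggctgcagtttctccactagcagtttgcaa
Gbp2 (chr3:142326335-142326404, plus strand): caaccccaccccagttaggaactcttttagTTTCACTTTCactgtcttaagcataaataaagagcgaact
Rsad2 (chr12:26506532-26506601, minus strand): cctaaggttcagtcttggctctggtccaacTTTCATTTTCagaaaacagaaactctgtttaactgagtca

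These genes were picked to show 1 or 2 members of the main roles. Ifit1 has ISRE letters at 2 places, from -104 to -95 and from -85 to -76 relative to the start, and Isg15 has 3 overlapping matches between -78 and -57. Ifit3b carries the same 104 bases as Ifit3, letter for letter, at chr19:34585139-34585242. The 4 Ifit genes lie within 104 kb of chromosome 19, the 4 Gbp members within 144 kb of chromosome 3, Oas1a, Oas2 and Oas3 within 178 kb of chromosome 5, and Rsad2 and Cmpk2 within 37.1 kb of chromosome 12. In all, 19 of the 39 members overlap another annotated gene, 15 of them on the opposite strand, and since the strand setting of the counting is not given in the sources used here, reads of such pairs cannot be told apart.

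All 39 members were expressed in these valves, over a wide range. Per kilobase of exon, the mean normalized count over the 14 libraries ranged from 17.4 for Oas3 to 25411 for Ifitm3, a protein that blocks the fusion of virus and cell membranes, which stood above 99.7% of all tested genes. Normalized counts are read counts scaled for library size with TMM factors, so that libraries of different depth can be compared. Next in order came Bst2 (tetherin, which holds budding virus at the cell surface) at 2529, Isg15 at 2233, Ifi27 at 1600, Gbp2 at 1446, Rsad2 (viperin) at 1327 and Ifit3 at 1239 normalized counts per kilobase. At the low end were Mx1 at 32.4, Herc6 at 50.8 and Mx2 at 58.0. The library totals ranged from 20990655 to 73128220 counts, and 3 counts correspond to 2.04 to 9.93 normalized counts, depending on the library. AngII 4, the library with the lowest total, had 165 normalized counts of Xist, which is transcribed from the inactive X chromosome of females, where the other 13 libraries had 0 to 1 and the mice are described as male, so counts without AngII 4 are given too.

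A control library, Ctrl 2, stood apart from the other 13 in these genes. Averaged over the 39 members, log2(normalized count + 1) was 11.62 in Ctrl 2 and lay between 9.56 and 10.68 in the other 13 libraries, including 10.17, 10.17 and 10.24 in Ctrl 1, Ctrl 3 and Ctrl 4. Ctrl 2 was the highest of all 14 libraries for 28 of the 39 members (71.8%) and for 6.05% of all tested genes. Its normalized counts exceeded the mean of the other 3 Ctrl mice by a median log2 ratio of 1.32 over the members, with 27 of 39 (69.2%) above 1, against a median of -0.08 and 8.18% above 1 over all tested genes. The fold over the other Ctrl mice was 6.85 for Usp18, 6.52 for Ifit1, 6.51 for Oasl1, 6.39 for Cmpk2, 6.01 for Mx1, 5.56 for Ifi44 and 5.33 for Ifit2. It was 3.98 for Isg15 and 3.14 for Irf7, the factor that amplifies type I interferon production. The most highly expressed member moved little, with a fold of 1.18 for Ifitm3, and Ifi27 and Ifitm1 were at 0.841 and 0.815.

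By role, the median log2 ratio of Ctrl 2 to the other Ctrl mice was 2.17 in the IFIT family, 1.95 for the Mx genes with Rsad2 and Cmpk2, 1.62 in the Isg15 group, 1.47 in the sensors, 1.42 in the OAS family, 1.32 in the GBP and IRG GTPases, 0.94 in the transcription factors, 0.77 in the 6 further genes and 0.24 in the membrane factors. It was 1.25 over the 17 members with ISRE letters in their window and 1.42 over the 13 whose window had none. Some genes outside the list were higher in that library too. Among 49 tested other type I interferon-stimulated genes, 17 had a log2 ratio above 1 (median 0.70), and among 14 tested genes of a list of interferon-gamma-inducible GTPases and chemokines, 8 had (median 1.35). Upstream in the pathway it was 0 of 15 receptor and JAK-STAT genes (median -0.02), 2 of 16 sensors and adaptors (median 0.16) and 2 of 10 regulatory factors (median 0.16). Cxcl10, a chemokine that draws T cells, had 3331 normalized counts in Ctrl 2 and 0 to 540 in the other 13 libraries. Ifng, which encodes interferon gamma, had 33 normalized counts in AngII 4, 24 in Ctrl 2, 2 in Ctrl 3 and 0 in the other 11 libraries. These came from 10 raw counts in AngII 4, 29 in Ctrl 2 and 2 in Ctrl 3. The lymphocyte and NK markers summed to 1116 normalized counts in Ctrl 2, within the range of 459 to 1264 in the other Ctrl mice, and the macrophage markers to 86882, within their range of 30816 to 115948. Single markers differed from these sums. Trac, which encodes a chain of the T cell receptor, had 391 normalized counts in Ctrl 2 and 31 to 160 in the other 13 libraries. Cd3g, by contrast, had 76 in Ctrl 2 and 0 to 106 in those libraries. Over the 10 tested lymphocyte and NK markers the median log2 ratio in Ctrl 2 was -0.09, with 2 above 1. The plasmacytoid dendritic markers, which include the member Bst2, summed to 126472 in Ctrl 2 and 45722 to 76129 in the other Ctrl mice, with 93015 to 158952 in the AngII+LY mice. Most of this sum came from 1 gene, Cox6a2, with 110219 normalized counts in Ctrl 2. Its fold over the other Ctrl mice was 2.48, beside 2.29 for Tnnt2, 2.08 for Tnni3, 1.27 for Myl2 and 1.27 for Myl3 of the cardiomyocyte markers. In AngII+LY against AngII mice its log2 fold change was 1.34, beside 1.57, 1.41, 1.03 and 1.36 for these markers in the same order. Whether the Cox6a2 reads came from dendritic cells was not tested. The median log2 ratio in Ctrl 2 over the 8 plasmacytoid dendritic markers was 0.14. The median log2 ratio in Ctrl 2 was 0.39 over the 12 macrophage markers and 1.28 over the 12 cardiomyocyte markers. The cardiomyocyte sum was 1719492 in Ctrl 2 and still higher in AngII+LY 3 (1913675) and AngII+LY 4 (2658445), where the mean log2 level of the members was 10.24 and 9.56. No marker of these lists was at 0 in every library, and the part of other cell types in the values of Ctrl 2 was not tested. Because Ctrl 2 is 1 of 4 control mice, the members' counts and medians in each comparison with Ctrl are given also without it.

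**Figure D1:**
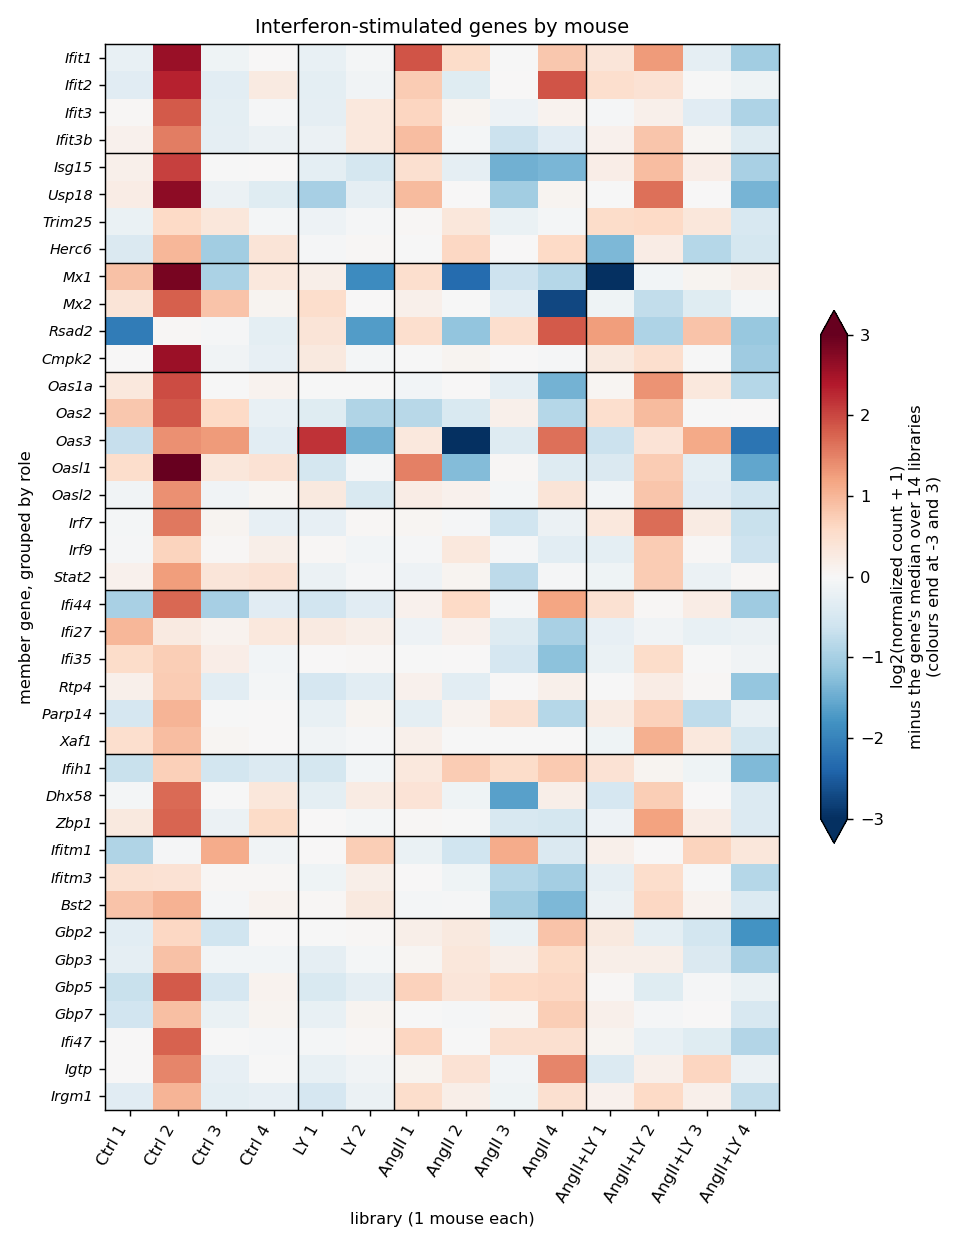
Each cell is the log2(normalized count + 1) of 1 member (rows, grouped by role) in 1 library (columns, grouped by treatment) minus the median of that gene over the 14 libraries; red is above and blue below the median, and colours end at -3 and 3. Ctrl 2 is the highest library for 28 of the 39 members, and AngII+LY 4 is the lowest for 17.

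Averaged over the members, the groups overlapped. The mean log2 level was 10.55 ± 0.72 in Ctrl (SD, n = 4), 10.09 ± 0.05 in LY (SD, n = 2), 10.19 ± 0.22 in AngII (SD, n = 4) and 10.16 ± 0.46 in AngII+LY mice (SD, n = 4), and Ctrl without Ctrl 2 stood at 10.19 ± 0.04 (SD, n = 3). The AngII+LY mice spread most after Ctrl, from 9.56 in AngII+LY 4 to 10.68 in AngII+LY 2, and AngII+LY 2 was the highest library for Irf7, Irf9, Xaf1 and Ifitm3. Fewer cells of a type and less RNA per cell cannot be told apart in these bulk samples.

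The comparison of AngII with Ctrl mice asks how the infusion and the hypertension it brings changed valve transcription. Interferon-stimulated genes tended to be lower in AngII mice, but edgeR called none, DESeq2 called 3, and the tendency depended on Ctrl 2. In edgeR's quasi-likelihood test, 30 of 39 members had a log2 fold change below 0 and 9 above, with a median of -0.32 beside -0.06 over all tested genes. A gene was called where its p, adjusted by Benjamini-Hochberg, was under 0.05 and its log2 fold change lay beyond 0.5 in size; 0 members were called, as were 0% of all tested genes, and the lowest adjusted p of a member was 0.0835. At an unadjusted p under 0.05, 10 members were lower and 0 higher, where 11.7% of all tested genes were lower and 13.4% higher. DESeq2 called 3 members lower, Ifi27 (adjusted p = 0.0178), Bst2 (adjusted p = 0.0183) and Oas2 (adjusted p = 0.0211), where it called 4.69% of all tested genes lower, and limma called 0 (0% of all tested genes), with 8 lower and 1 higher at an unadjusted p under 0.05 beside 13.9% and 12.7% of all tested genes. Without AngII 4, 6 members were lower and 0 higher in edgeR at that threshold, where 1382 of 19246 tested genes were lower and 1799 higher. Without Ctrl 2, 21 members were above 0 and 18 below, the median was 0.06, and at an unadjusted p under 0.05 there were 3 lower members (Ifi27, Oas2 and Bst2) and 5 higher ones, where 8.62% of all tested genes were lower and 10.7% higher.

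Among the transcription factors, Stat2, the partner of IRF9 in the type I complex, was lower in AngII mice. Stat2 had 2325, 5070, 2721 and 2878 normalized counts in Ctrl 1 to 4, 1874 and 2089 in LY 1 and 2, 1903, 2243, 1237 and 2068 in AngII 1 to 4, and 1932, 3597, 1880 and 2168 in AngII+LY 1 to 4. Every AngII mouse was below every Ctrl mouse, with or without Ctrl 2 (2-sided exact permutation test, p = 0.0286, which is the lowest value possible with groups of 4). The log2 fold change was -0.80 with a standard error of 0.28 (edgeR, unadjusted p = 0.0131, adjusted p = 0.109), and it was -0.50 without Ctrl 2 (edgeR, unadjusted p = 0.0715) and -0.28 with GC content corrected by loess (edgeR, unadjusted p = 0.348). Irf7 had 2543, 7917, 2796 and 2214 normalized counts in Ctrl 1 to 4, 2242 and 2712 in LY 1 and 2, 2760, 2568, 1754 and 2339 in AngII 1 to 4, and 3297, 8374, 3121 and 1653 in AngII+LY 1 to 4. Ctrl 2 and AngII+LY 2 stood far above the rest, and the groups overlapped. Its log2 fold change in AngII against Ctrl was -0.72 with a standard error of 0.46, and -0.10 without Ctrl 2. Irf9 was at -0.23.

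The IFIT proteins bind foreign RNA that lacks the marks of host messages, and none of the 4 IFIT genes differed at an unadjusted p under 0.05 with all Ctrl mice. Ifit1 had 2194, 15416, 2335 and 2565 normalized counts in Ctrl 1 to 4, 2193 and 2480 in LY 1 and 2, 9429, 3741, 2560 and 4500 in AngII 1 to 4, and 3283, 6199, 2118 and 1246 in AngII+LY 1 to 4. Ctrl 2 was the highest and AngII 1 the next, while the other Ctrl mice and both LY mice lay close together. The log2 fold change was -0.15 with a standard error of 0.65, and it was 1.10 without Ctrl 2 (edgeR, unadjusted p = 0.0454, adjusted p = 0.25). The medians over the 4 genes were -0.28 and, without Ctrl 2, 0.61.

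Of the Isg15 group, Isg15 itself was at an unadjusted p under 0.05. Isg15 had 1662, 6146, 1464 and 1508 normalized counts in Ctrl 1 to 4, 1212 and 1033 in LY 1 and 2, 2083, 1229, 543 and 572 in AngII 1 to 4, and 1704, 2824, 1710 and 757 in AngII+LY 1 to 4. AngII 3 and AngII 4 were the lowest of all 14 libraries and AngII 1 was within the Ctrl range. The log2 fold change was -1.28 with a standard error of 0.55 (edgeR, unadjusted p = 0.036, adjusted p = 0.169), and -0.48 without Ctrl 2. Usp18, which removes ISG15 and also restrains the type I receptor, was at -1.05 with all Ctrl mice and at 0.25 without Ctrl 2. Trim25 was at -0.17 and Herc6, the mouse ISG15 ligase, at 0.16.

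**Figure D2:**
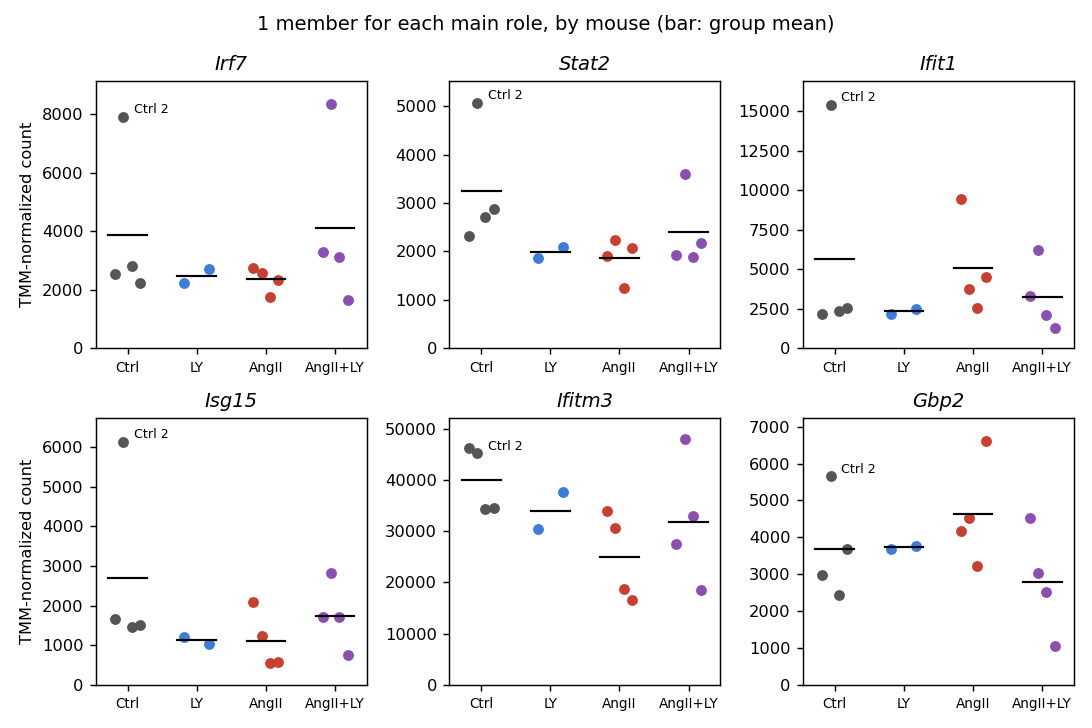
TMM-normalized counts (vertical axes, linear from 0) of 6 members in each mouse, by group, with a bar at the group mean. Ctrl 2 is the highest Ctrl mouse for Irf7, Stat2, Ifit1, Isg15 and Gbp2, and for Stat2 and Ifitm3 all 4 AngII mice lie below all 4 Ctrl mice.

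The membrane factors were lower in AngII mice in 2 of 3 cases, and these moved little when Ctrl 2 was left out but more with a correction for GC content. Ifitm3 had 46289, 45233, 34266 and 34524 normalized counts in Ctrl 1 to 4, 30517 and 37595 in LY 1 and 2, 34057, 30737, 18660 and 16531 in AngII 1 to 4, and 27601, 48133, 33000 and 18585 in AngII+LY 1 to 4. Bst2 had 5128, 5848, 2763 and 3023 in Ctrl 1 to 4, 2871 and 3430 in LY 1 and 2, 2697, 2743, 1375 and 1108 in AngII 1 to 4, and 2491, 4360, 3022 and 2121 in AngII+LY 1 to 4. In both genes every AngII mouse was below every Ctrl mouse (2-sided exact permutation test, p = 0.0286), although AngII 1 lay just under the lowest Ctrl mouse for Ifitm3 and AngII 2 did for Bst2. The log2 fold change of Ifitm3 was -0.68 with a standard error of 0.30 (edgeR, adjusted p = 0.171) and -0.62 without Ctrl 2, and that of Bst2 was -1.08 with a standard error of 0.34 (edgeR, adjusted p = 0.0868) and -0.87 without Ctrl 2. With that correction Ifitm3 was at -0.26 (edgeR, unadjusted p = 0.332) and Bst2 at -0.51 (edgeR, unadjusted p = 0.0733). Stat2, Ifitm3 and Bst2 were the 3 members whose AngII and Ctrl mice did not overlap, all of them lower, where 7.56% of all tested genes were lower and 7.46% higher without overlap. Ifitm1 was at -0.05.

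Among the OAS genes, Oas2 and Oas1a were lower at an unadjusted p under 0.05. Oas2 had 403, 841, 351 and 199 normalized counts in Ctrl 1 to 4, 180 and 123 in LY 1 and 2, 130, 168, 255 and 126 in AngII 1 to 4, and 328, 447, 230 and 231 in AngII+LY 1 to 4. AngII 3 was above Ctrl 4, and the other AngII mice were below every Ctrl mouse. The log2 fold change was -1.40 with a standard error of 0.44 (edgeR, unadjusted p = 0.00648, adjusted p = 0.0859), -0.90 without Ctrl 2, and without Ctrl 4 it was called (edgeR, adjusted p = 0.0475). In the fit without Ctrl 4, 152 of 19079 tested genes were called lower and 653 higher, where the main fit called 0. Oas1a had 491, 1515, 388 and 423 in Ctrl 1 to 4, 390 and 387 in LY 1 and 2, 368, 393, 326 and 146 in AngII 1 to 4, and 408, 1005, 490 and 216 in AngII+LY 1 to 4, a log2 fold change of -1.19 with a standard error of 0.52 (edgeR, adjusted p = 0.175) that was -0.49 without Ctrl 2. Oasl1, which lacks synthetase activity, had 224, 1371, 197 and 209 in Ctrl 1 to 4, 107 and 152 in LY 1 and 2, 442, 62, 159 and 119 in AngII 1 to 4, and 114, 263, 127 and 52 in AngII+LY 1 to 4. Ctrl 2 was far above all others and AngII 1 was the next, and the log2 fold change was -1.35 with all Ctrl mice and -0.10 without Ctrl 2.

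Mx2, a dynamin-like antiviral GTPase, was also lower at an unadjusted p under 0.05. Mx2 had 233, 622, 326 and 189 normalized counts in Ctrl 1 to 4, 258 and 180 in LY 1 and 2, 198, 177, 142 and 26 in AngII 1 to 4, and 162, 107, 138 and 170 in AngII+LY 1 to 4. Every AngII+LY mouse was below every Ctrl mouse, and AngII 1 was above Ctrl 4. In AngII against Ctrl the log2 fold change was -1.32 with a standard error of 0.53 (edgeR, adjusted p = 0.143), and -0.86 without Ctrl 2. Mx1 had the lowest value of all members, -1.95, with a standard error of 0.96, and -0.77 without Ctrl 2. Zbp1, a sensor of Z-form nucleic acid, had 556, 1508, 401 and 670 in Ctrl 1 to 4, 454 and 430 in LY 1 and 2, 463, 448, 321 and 311 in AngII 1 to 4, and 408, 1048, 530 and 341 in AngII+LY 1 to 4. AngII 1 and AngII 2 were within the Ctrl range, and the log2 fold change was -1.02 with a standard error of 0.42 (edgeR, adjusted p = 0.154) and -0.49 without Ctrl 2. The other sensors were Dhx58 (LGP2) at -0.81 and Ifih1 (MDA5), which detects long double-stranded RNA, at 0.73.

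Ifi27 was the member with the lowest p and did not follow Ctrl 2. Ifi27 had 13557, 8264, 7404 and 8507 normalized counts in Ctrl 1 to 4, 8197 and 7679 in LY 1 and 2, 6165, 7433, 5203 and 3471 in AngII 1 to 4, and 5746, 6325, 5877 and 6089 in AngII+LY 1 to 4. Every AngII+LY mouse was below every Ctrl mouse, and AngII 2 was above Ctrl 3 by a small margin. The log2 fold change in AngII against Ctrl was -0.76 with a standard error of 0.23 (edgeR, unadjusted p = 0.00567, adjusted p = 0.0835), and -0.82 without Ctrl 2. Ifi35 had 3783, 4351, 2990 and 2466 in Ctrl 1 to 4, 2625 and 2651 in LY 1 and 2, 2593, 2597, 1830 and 1102 in AngII 1 to 4, and 2261, 3780, 2583 and 2421 in AngII+LY 1 to 4. AngII 3 and AngII 4 were the lowest and the other AngII mice were above Ctrl 4, with a log2 fold change of -0.74 and a standard error of 0.27 (edgeR, adjusted p = 0.12) that was -0.60 without Ctrl 2. Ifi27 overlaps Ifi27l2a and Ifi35 overlaps Vat1 on the opposite strand. Rtp4, Parp14 and Xaf1 lay between -0.39 and -0.20.

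The GBP and IRG GTPases, which respond strongly to interferon gamma and act on the vacuoles of intracellular pathogens, did not share this direction. Their median log2 fold change in AngII against Ctrl was 0.11, with 0 of 7 at an unadjusted p under 0.05, and 0.58 without Ctrl 2, with 2 higher (Gbp5 and Irgm1). Gbp2 had 2973, 5654, 2430 and 3695 normalized counts in Ctrl 1 to 4, 3682 and 3771 in LY 1 and 2, 4160, 4515, 3218 and 6621 in AngII 1 to 4, and 4517, 3035, 2521 and 1063 in AngII+LY 1 to 4. AngII 4 was the highest and AngII+LY 4 the lowest of all 14 libraries, and AngII and Ctrl mice overlapped. Its log2 fold change was 0.33 with a standard error of 0.37, and 0.61 without Ctrl 2. Ifi47 had 592, 2013, 586 and 576 in Ctrl 1 to 4, 563 and 607 in LY 1 and 2, 917, 586, 826 and 827 in AngII 1 to 4, and 627, 504, 461 and 319 in AngII+LY 1 to 4. The Ctrl mice other than Ctrl 2 and both LY mice lay within a narrow band of 563 to 607, with 3 AngII mice above it and 3 AngII+LY mice below it.

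The 5 members that were higher in AngII mice at an unadjusted p under 0.05 once Ctrl 2 was left out, which are named here after their values were seen, were Ifi44 with a log2 fold change of 1.29, Ifih1 with 1.15, Ifit1 with 1.10, Gbp5 with 0.89 and Irgm1 with 0.58. In this fit edgeR's lowest adjusted p over the members was 0.161. With all Ctrl mice the same genes had log2 fold changes of 0.19, 0.73, -0.15, -0.01 and 0.12, in the same order. The median by role moved from -1.19 to -0.10 in the OAS family, from -0.72 to -0.10 in the transcription factors and from -0.81 to -0.21 in the sensors, while that of the membrane factors moved from -0.68 to -0.62.

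**Figure D3:**
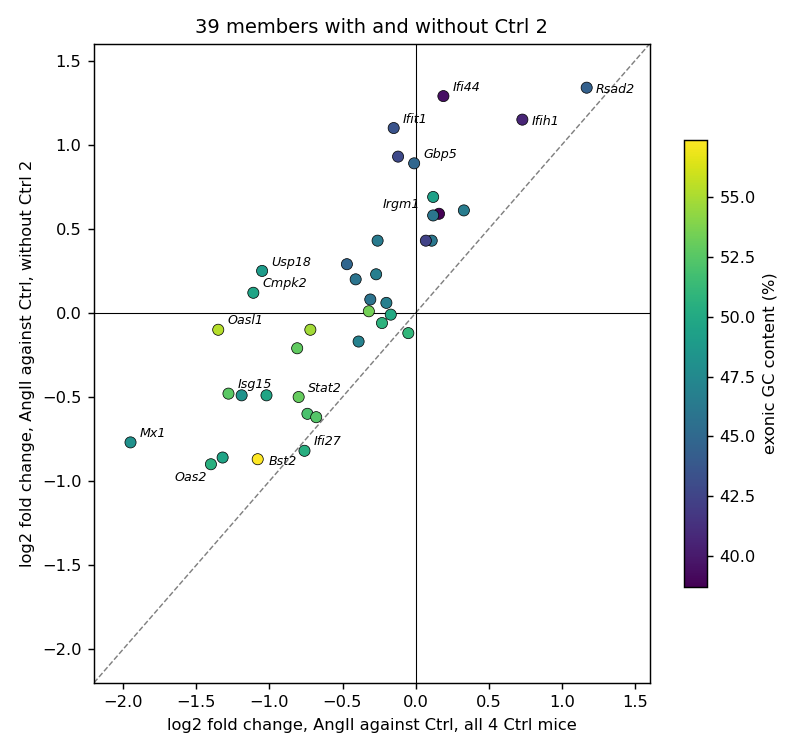
Log2 fold change of each of the 39 members in AngII against Ctrl mice with all 4 Ctrl mice (horizontal axis) and without Ctrl 2 (vertical axis), coloured by exonic GC content; the dashed line marks equal values. The median is -0.32 with Ctrl 2 and 0.06 without it, and Ifi27 and Bst2 stay near the dashed line while Usp18, Cmpk2 and Ifit1 move far above it.

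The fold changes of the members followed their GC content. Genes are not independent replicates, so this is a description across the 39 members. Spearman's rho between exonic GC content (38.7% for Herc6 to 57.4% for Bst2) and the log2 fold change in AngII against Ctrl was -0.65, beside -0.55 over all genes with a known GC content, and it was -0.78 without Ctrl 2. All 10 members lower at an unadjusted p under 0.05 were among the 20 with the highest GC content, whose median was -0.81, and the 19 with the lowest GC content had a median of -0.12. Without Ctrl 2 the 5 higher members were all among these 19, and the 3 lower ones all among the 20. In AngII+LY against AngII the relation ran the other way, with a rho of 0.67 over the members and 0.44 over all genes, and these comparisons share the AngII mice. Once each library was corrected for GC content by loess, the rho over the members was -0.08 in AngII against Ctrl and 0.26 in AngII+LY against AngII, and the number of members lower in AngII at an unadjusted p under 0.05 went from 10 to 3 (Oas2, Mx2 and Ifi27), while the share of all tested genes that were lower went from 11.7% to 3.51%. This correction moved the median of all genes from -0.06 to 0.11, and the members' median minus that of all genes went from -0.26 to -0.44. The part of GC content in the differences of single members was not tested.

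**Figure D4:**
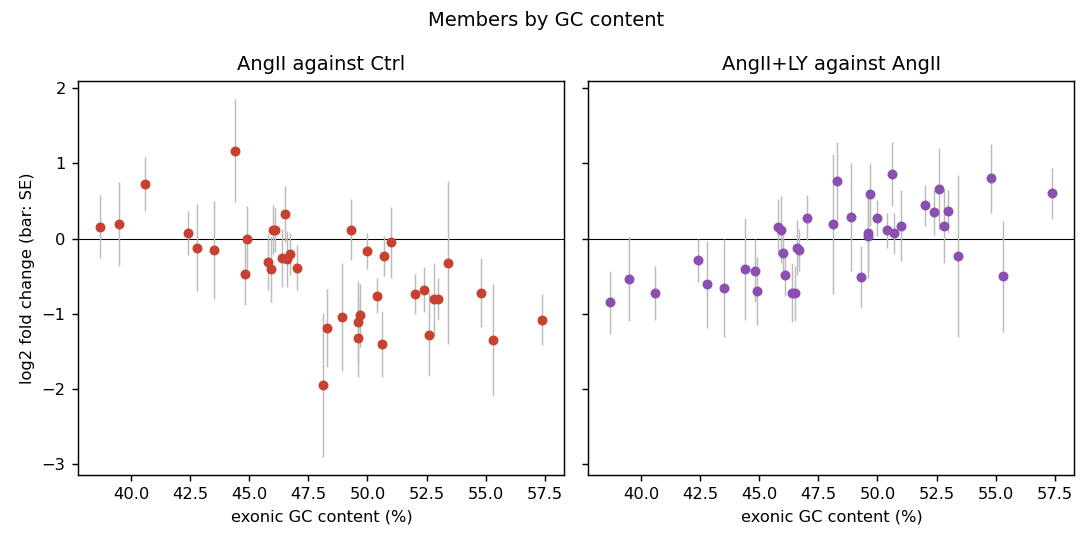
Log2 fold change with its standard error (vertical axes) of the 39 members against exonic GC content in percent (horizontal axes), for AngII against Ctrl mice (left) and AngII+LY against AngII mice (right). Spearman's rho is -0.65 on the left and 0.67 on the right.

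Several markers of macrophages and lymphocytes were also lower in AngII mice at an unadjusted p under 0.05, although edgeR called no marker of these lists, and the counts are to be read beside the 11.7% of all tested genes that were lower. Of 12 macrophage markers, 7 were lower at an unadjusted p under 0.05 and 0 higher in AngII against Ctrl, with a median log2 fold change of -0.95, among them the complement genes C1qa (-1.86), C1qb (-1.82) and C1qc (-1.59) and the lysosomal gene Cd68 (-1.69). Their summed normalized counts were 30816 to 115948 in the Ctrl mice and 27773 to 52154 in the AngII mice, with 54042 to 80250 in LY mice and 35230 to 89892 where both agents were given. Of 10 tested lymphocyte and NK markers, 3 were lower and 0 higher, with sums of 459 to 1264 in Ctrl and 372 to 678 in AngII mice. Of 8 smooth muscle markers 6 were lower and of 10 adipocyte markers 6 were lower, whereas of 12 interstitial cell and fibroblast markers, the main cells of the valve, 1 was higher and 1 lower, and the endothelial markers gave the same counts. The smooth muscle sums were 475092, 127086, 49355 and 26794 in Ctrl 1 to 4 and 26994 to 59855 in AngII mice. Ctrl 1 thus stood far above the other Ctrl mice, and the groups overlapped. The adipocyte sums were 50363 to 69544 in Ctrl and 25085 to 61165 in AngII mice. Without Ctrl 2, 7 macrophage markers (median -0.92), 2 of 11 lymphocyte and NK markers (median -1.13), 5 smooth muscle and 5 adipocyte markers were lower at an unadjusted p under 0.05. In that fit 8.62% of all tested genes were lower, and the median of the members was 0.06. DESeq2 called 6 macrophage, 4 smooth muscle and 4 adipocyte markers lower with all Ctrl mice, where it called 4.69% of all tested genes lower. No marker was at 0 in every library, and the part of these cell types in the values of the members was not tested.

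Adding LY272015 to AngII asks which of the AngII changes an HTR2B antagonist alters, and no interferon-stimulated gene passed the test. In AngII+LY against AngII mice edgeR called 0 members, as it called 0% of all tested genes, and DESeq2 and limma called 0 members too, where they called 10.8% and 1.76% of all tested genes. At an unadjusted p under 0.05 edgeR gave 0 members, where 10.1% of all tested genes were higher and 12.4% lower, and its lowest adjusted p was 0.247. DESeq2 gave 1 lower member and limma 3 lower members, where 13.4% and 12.5% of all tested genes were lower. The log2 fold changes ran from -0.85 for Herc6 to 0.86 for Oas2, with 21 above 0 and 18 below and a median of 0.07. The GBP and IRG GTPases were all below 0, with a median of -0.51 and Gbp2 at -0.73 (standard error 0.37), while the 3 transcription factors and the 3 membrane factors were all above 0, with medians of 0.36 and 0.35 and Irf7 at 0.80 (standard error 0.46). Oas2 was at 0.86 (standard error 0.43). Gbp5, an activator of the inflammasome, was the 1 member whose groups did not overlap, where 5.66% of all tested genes were lower and 5.45% higher without overlap. It had 727, 579, 687 and 701 normalized counts in AngII 1 to 4 and 463, 350, 443 and 397 in AngII+LY 1 to 4, so every AngII+LY mouse was lower (2-sided exact permutation test, p = 0.0286). In edgeR its log2 fold change was -0.70 with a standard error of 0.45 (adjusted p = 0.373). Beside these values, 7 of 12 interstitial cell and fibroblast markers were lower and 8 of 12 cardiomyocyte markers higher in AngII+LY than in AngII mice at an unadjusted p under 0.05. Their sums were 836077 to 993142 and 396496 to 1030755 in AngII mice, and 327177 to 561248 and 1008651 to 2658445 in AngII+LY mice, and the part of this shift in the members' values was not tested.

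Set directly against Ctrl, the AngII+LY mice again had lower values that rested largely on Ctrl 2. Of 39 members 34 were below 0, with a median of -0.41, and edgeR called 0 of them, where it called 0% of all tested genes, and DESeq2 and limma called 0 members too, beside 1.79% and 0.0209% of all tested genes. In these tools 5 and 1 members were lower at an unadjusted p under 0.05, where 6.29% and 7.34% of all tested genes were. Before adjustment, 4 members were lower and 0 higher at a p under 0.05, where 6.14% of all tested genes were lower and 4.89% higher. These were Ifi27 (-0.65, standard error 0.23), Ifi47 (-0.98, standard error 0.39), Oasl1 (-1.85, standard error 0.76) and Mx2 (-1.25, standard error 0.53), with adjusted p between 0.336 and 0.401 in edgeR. Mx2 and Ifi27 were the members whose groups did not overlap (2-sided exact permutation test, p = 0.0286 for each), where 4.89% of all tested genes were lower and 3.27% higher without overlap. Without Ctrl 2 the median was 0.10 and Ifi27 (-0.71) was the 1 member left at an unadjusted p under 0.05, where 5.65% of all tested genes were lower. AngII and AngII+LY mice were compared with the same Ctrl mice, so the lower values of Ifi27 and Mx2 in both comparisons are not independent.

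LY272015 alone, in 2 mice, gave values below those of Ctrl for 35 of 39 members, with a median of -0.60 that was -0.07 without Ctrl 2. In LY against Ctrl edgeR called 0 members and 0% of all tested genes. DESeq2 and limma called 0 members as well, beside 0.11% and 0% of all tested genes, with 3 and 1 members lower at an unadjusted p under 0.05, where 1.47% and 0.653% of all tested genes were lower. The count at an unadjusted p under 0.05 was 1 lower member, Oas2 at -1.56 with a standard error of 0.57, where 0.763% of all tested genes were lower and 0.627% higher, and without Ctrl 2 it was 0. Its adjusted p in edgeR was 1.0. For 6 members, Isg15, Oas2, Oasl1, Stat2, Rtp4 and Xaf1, both LY mice were below all 4 Ctrl mice, where 6.41% of all tested genes were lower and 5.64% higher without overlap. The smallest p that the exact permutation test allows for 2 mice against 4 is 0.0667, so this test could not pass 0.05 for any gene.

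A difference in the effect of LY272015 between infused and other mice was tested as an interaction, the log2 fold change of AngII+LY against AngII minus that of LY against Ctrl. At an unadjusted p under 0.05 there were 3 positive members and 0 negative ones, where 5.66% of all tested genes were positive and 7.64% negative. The values were 2.42 for Oas2 with a standard error of 0.71 (edgeR, unadjusted p = 0.0043, adjusted p = 0.295), 1.92 for Isg15 with a standard error of 0.89 and 1.08 for Stat2 with a standard error of 0.45. Without Ctrl 2 the interaction was 1.93 for Oas2, 1.12 for Isg15 and 0.78 for Stat2, and Oas2 alone kept an unadjusted p under 0.05 in edgeR. The mean of Oas2 was 448 ± 275 in Ctrl (SD, n = 4), 152 ± 40 in LY (SD, n = 2), 170 ± 60 in AngII (SD, n = 4) and 309 ± 103 normalized counts in AngII+LY mice (SD, n = 4).

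The genes around the members in the pathway were counted as whole lists. None of 21 interferon ligand genes passed the filter, and besides Ifng the largest value was 28 raw counts of Ifnb1 in AngII 2. Among 15 receptor and JAK-STAT genes, 3 were higher and 3 lower in AngII against Ctrl at an unadjusted p under 0.05, with a median of -0.34. The type I receptor gene Ifnar2 (0.37), and the kinases Jak1 (0.53) and Jak2 (1.01), were higher, and Ptpn6, the phosphatase that dampens JAK signals and is rich in blood cells, was lower (-1.49). Jak1 had 14522 ± 2927 normalized counts in AngII (SD, n = 4) and 8173 ± 1775 in AngII+LY mice (SD, n = 4), a log2 fold change of -0.83 with a standard error of 0.19 (edgeR, adjusted p = 0.0588). Ifnar2 was at -0.67 in the same comparison (edgeR, adjusted p = 0.0625). Ifngr1, the highest of the list per kilobase, was at 0.03 in AngII against Ctrl and at -0.33 in AngII+LY against AngII.

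Of 16 tested sensors and adaptors, 2 were higher and 3 lower in AngII against Ctrl at an unadjusted p under 0.05. The endosomal RNA receptor Tlr3 was at 0.93, with 2357 ± 187 normalized counts in the AngII group and 1240 ± 430 in the Ctrl group (SD, n = 4 each), and at -1.05 in AngII+LY against AngII. The mitochondrial adaptor Mavs (-0.71) and the adaptor Myd88 (-0.76) were lower in AngII mice, and the kinase Tbk1 was at -0.69 in AngII+LY against AngII. Of 10 interferon regulatory factors outside the list, 5 were lower and 0 higher in AngII against Ctrl, with a median of -0.53, among them Irf8 (-1.28), a factor of macrophages and dendritic cells, Irf5 (-0.72) and Irf3 (-0.56). Without Ctrl 2, Irf8 was at -1.33, Tlr3 at 1.06, Jak1 at 0.50 and Ptpn6 at -1.50, and the counts higher and lower became 2 and 1 of the receptor and JAK-STAT genes, 2 and 3 of the sensors and 0 and 2 of the regulatory factors.

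Among 49 other type I interferon-stimulated genes, 4 were higher and 6 lower in AngII against Ctrl at an unadjusted p under 0.05, with a median of -0.24, and without Ctrl 2 there were 6 higher and 2 lower, with a median of 0.04. The DNA-binding p200 family genes Ifi203 (1.51) and Mndal (1.01) and the antiviral factor Samd9l (1.23) were higher, and Uba7, the enzyme that activates ISG15, was lower (-0.83). Samd9l had 7116 ± 3338 normalized counts in AngII and 3035 ± 1041 in AngII+LY mice (SD, n = 4 each), a log2 fold change of -1.23 with a standard error of 0.33 (edgeR, adjusted p = 0.0713). Among the 14 tested interferon-gamma-inducible genes, Ifi30, a lysosomal thiol reductase of antigen-presenting cells, was the 1 gene lower in AngII mice (-1.51), with 0 higher there and 3 higher without Ctrl 2, and Gbp9 (-0.85) and Gbp4 (-0.79) were lower in AngII+LY against AngII. In AngII+LY against AngII the counts higher and lower were 2 and 3 of 15 receptor and JAK-STAT genes, 1 and 2 of 16 sensors, 0 and 1 of 10 regulatory factors, 1 and 3 of 49 other type I genes and 0 and 3 of 14 gamma-inducible genes.

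The members varied together over the libraries, less so without Ctrl 2. As a description over the 741 pairs of members, the median Pearson's r of log2 levels was 0.48 over 14 libraries and 0.23 over the 13 without Ctrl 2. Cmpk2 (0.93), Usp18 (0.92) and Ifit3 (0.90) had the highest r with the mean of the other members, and Ifitm1 (-0.21), Rsad2 (0.08) and Ifi27 (0.12) the lowest. All these genes share the same libraries, so the r values are not independent.

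Rsad2, which encodes the antiviral enzyme viperin, varied with genes of red blood cells. Rsad2 and its neighbour Cmpk2 were singled out after their values were seen. Rsad2 had 1126, 4923, 4736 and 3930 normalized counts in Ctrl 1 to 4, 6295 and 1504 in LY 1 and 2, 6819, 2128, 6888 and 17246 in AngII 1 to 4, and 11506, 2527, 8713 and 2212 in AngII+LY 1 to 4. High and low mice occurred in every group, and Ctrl 2 lay close to Ctrl 3. Cmpk2, which encodes a mitochondrial nucleotide kinase and is usually induced together with Rsad2, had 5587 normalized counts in Ctrl 2 and 451 to 1339 in the other 13 libraries. The log2 level of Rsad2 rose with the log2 sum of 5 erythroid genes (4 hemoglobin chains and Alas2) over the 14 libraries. Pearson's r was 0.89 (permutation p = 3e-05, adjusted p = 0.0117) and Spearman's rho 0.90 (permutation p = 3e-05, adjusted p = 0.0117), adjusted over the 390 relations of the 39 members with the 10 marker lists. Of these relations it was the 1 with an adjusted p under 0.05, for r and for rho, and Oas3 had the next highest r with the erythroid sum, 0.66 (permutation p = 0.00764, adjusted p = 0.987). The r was 0.84 without Ctrl 1 and AngII 2, the libraries farthest from the median sum, 0.97 after removal of the group means and 0.89 without Ctrl 2. The melanocyte sum gave an r of -0.79 (permutation p = 0.0009, adjusted p = 0.175) and a rho of -0.74 (permutation p = 0.00374, adjusted p = 0.486). Outside the list, the interferon-stimulated genes Ube2l6 (r = 0.89) and Isg20 (r = 0.95) also followed the erythroid sum. The erythroid sums overlapped between the groups, with 457439 to 1494575 for Ctrl, 535925 to 1733828 for AngII, 806273 to 2563904 for AngII+LY and 798323 to 2017263 for LY mice. The hearts had been perfused with buffer before dissection. Rsad2 had the highest log2 fold change of the members in AngII against Ctrl, 1.17 with a standard error of 0.69 (edgeR, unadjusted p = 0.112, adjusted p = 0.308), and the part of red blood cell RNA in it was not tested.

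**Figure D5:**
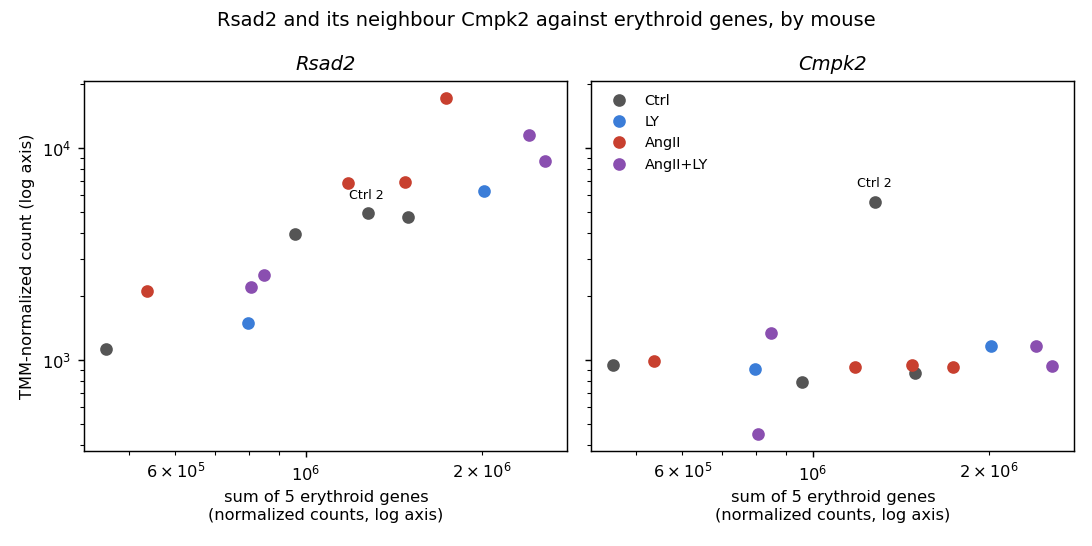
Normalized counts of Rsad2 (left) and of its neighbour Cmpk2 (right) against the sum of 5 erythroid genes, both on log axes, with 1 point for each mouse coloured by group. Rsad2 follows the erythroid sum (r = 0.89 on log2 values), whereas Cmpk2 lies between 451 and 1339 in every library except Ctrl 2, at 5587.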

How the data were processed

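RNA of aortic valve leaflets was sequenced for 14 mice (Ctrl n = 4, LY n = 2, AngII n = 4, AngII+LY n = 4; the design text gives 4 for each group). The authors trimmed reads, aligned them with HISAT2 to GRCm39 and counted them with featureCounts, and the deposited values are whole-number counts per Ensembl gene, not normalized; the strand setting is not given in the sources used here. Symbols, coordinates, exonic length and GC content were taken from GENCODE, with 618 identifiers unmatched.

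The 19145 of 56941 genes that averaged 10 counts or more were fitted in 1 model of the 4 groups with edgeR 4.0.16 in R 4.3.3 (TMM, quasi-likelihood test, Benjamini-Hochberg adjustment over all tested genes). Calls needed an adjusted p under 0.05 together with a log2 fold change beyond 0.5 in size. Means ± SD and exact permutation tests used normalized counts, and log2 levels a pseudocount of 1. With 1 library for each mouse, p-values measure the spread between these mice. DESeq2 1.42.0, limma 3.58.1, other filters, a loess correction for GC content (span 0.3), a replicate block and the removal of single mice were alternatives, and the code was tested on simulated data. Columns were matched to mice by name.

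The members and lists were chosen with earlier results of these data known, and 2 genes of the marker and pathway lists are not reported here. Values for each library were given for members with an unadjusted p under 0.05 in any comparison, up to the 12 with the smallest p, and for Isg15, Ifit1, Irf7, Stat2, Ifitm3 and Gbp2. Pathway genes were named at an unadjusted p under 0.05, at most 4 for each list, or as the highest of their list per length. Other genes were named after their values were seen.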

Additional observations from a re-analysis of the deposited data

Results flagged for a closer look

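Within a group of 4 mice, a single mouse was called far from the others where its gap to the nearest of them was too large a share of the group's range by Dixon's test at the 95% level. This held for 16 of 117 combinations of member and group. The test is set to flag about 1 in 20 for normally distributed values, and the share flagged over all tested genes is not given here. Of these 16, 10 were Ctrl 2, always as the highest Ctrl mouse. In normalized counts, Ifit1 was at 15416 in Ctrl 2 and 2194 to 2565 in the other Ctrl mice, Ifit3 at 10803 (2460 to 3107 in the others), Isg15 at 6146 (1464 to 1662), Oasl1 at 1371 (197 to 224) and Oasl2 at 9328 (3330 to 3761). Gbp3 was at 4526 in Ctrl 2 (2057 to 2353 in the others), Cmpk2 at 5587 (792 to 956), Ifi47 at 2013 (576 to 592), Igtp at 5333 (1636 to 1940) and Irgm1 at 7373 (2866 to 3046). These genes share 1 library, so the 10 flags are not independent.

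The other 6 were spread over 5 libraries. Mx1 had 4 normalized counts in AngII+LY 1 and 79 to 95 in the other AngII+LY mice, and Mx2 had 26 in AngII 4 and 142 to 198 in the other AngII mice. Rsad2 was low in Ctrl 1 (1126, with 3930 to 4923 in the others) and Rtp4 was low in AngII+LY 4 (1123, with 2489 to 2923 in the others). Gbp7 was high in AngII 4 (3663, with 2133 to 2300 in the others), and Xaf1 was high in AngII 1 by a small amount (2278, with 2048 to 2052 in the others).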

How the results depend on the processing

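The 15 log2 fold changes of single members at an unadjusted p under 0.05 (10 in AngII against Ctrl, 4 in AngII+LY against Ctrl and 1 in LY against Ctrl) kept their direction under every alternative run (201 results also kept their side of the threshold, and 82 no longer passed it); of the counts and medians, 183 stayed within 1.5 times or 1 SD and 58 moved. DESeq2 called 3 members in AngII against Ctrl. Members at an unadjusted p under 0.05 in AngII against Ctrl (10) became 3 with the GC correction, 5 with it and a replicate block, 4 with it and without Ctrl 2 (median 0.24), and 4 without Ctrl 2 and AngII 4, each 4 being 3 higher and 1 lower where the 10 were all lower. The matching counts over all tested genes, both directions together, were 4815 of 19145 in the main fit. They became 2804 of 19043, 2354 of 19043, 2139 of 19005 and 2297 of 19248, in the same order. Other members turned in AngII against Ctrl, with log2 fold changes of -0.65 to 1.15 for Ifit1, -0.91 to 0.46 for Irf7 and -2.15 to 0.38 for Oasl1 over the alternatives. In AngII+LY against AngII (0) there was 1 with DESeq2, 3 with limma, 2 without a filter, 2 with only these groups fitted, 4 with a replicate block, 1 with the GC correction without Ctrl 2 and 2 without Ctrl 2 and AngII 4. All tested genes gave 4315 of 19145 in the main fit. In the same order they gave 4889 of 19145, 4438 of 19145, 5461 of 32619, 3262 of 19144, 3747 of 19145, 2873 of 19005 and 3179 of 19248. In AngII+LY against Ctrl (4) there was 1 with the GC correction, 0 with it and a replicate block, 1 with limma and 2 without Ctrl 2 and AngII 4 (median 0.10), and the median was 0.25 with the GC correction without Ctrl 2. Beside these counts, all tested genes went from 2112 of 19145 to 2788 of 19043, 2453 of 19043, 2304 of 19145 and 2498 of 19248. In LY against Ctrl (1) there were 3 with DESeq2, 3 without a filter, 9 with a replicate block, 5 with that block and the GC correction, 0 with the GC correction without Ctrl 2 (median -0.05) and 0 without Ctrl 2 and AngII 4 (median -0.07). Here all tested genes went from 266 of 19145 to 428 of 19145, 633 of 32619, 387 of 19145, 342 of 19043, 267 of 19005 and 298 of 19248. The interaction (3) gave 10 with a replicate block, 1 with the GC correction, 6 with both, 1 with the GC correction without Ctrl 2 and 1 without Ctrl 2 and AngII 4. For it, all tested genes went from 2545 of 19145 to 2494 of 19145, 1563 of 19043, 1379 of 19043, 1180 of 19005 and 1544 of 19248. The causes of these moves were not tested.

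Leaving out 1 mouse at a time gave 6 (without AngII 3 or AngII 4) to 12 members at an unadjusted p under 0.05 in AngII against Ctrl, 0 to 1 called and medians of -0.50 to 0.06. It gave 0 to 2 and medians of -0.14 to 0.10 in AngII+LY against AngII, 1 (without Ctrl 2) to 8 and medians of -0.64 to 0.10 in AngII+LY against Ctrl, 0 to 3 and medians of -0.69 to -0.07 in LY against Ctrl, and 1 to 8 (without AngII+LY 4) for the interaction. Over all tested genes the counts were 3181 to 5667 in AngII against Ctrl, 3194 to 4869 in AngII+LY against AngII and 1443 to 2561 in AngII+LY against Ctrl. With both LY mice kept, they were 215 to 379 in LY against Ctrl and 1815 to 3178 for the interaction. Without 1 mouse at a time, edgeR called 0 to 1725 of all tested genes in AngII against Ctrl. The 1 member called there was in the fit without Ctrl 4, where 805 of 19079 tested genes were called. A lone LY mouse was assumed to vary like the other groups. The replicate numbers did not pair the mice: the 18 pairs of libraries with the same number had correlations of -0.128 to 0.0897, and pairs with different numbers -0.105 to 0.196. The removal of LY mice, of 2 libraries together and of Ctrl 2 under the GC correction, and some fits of the interaction, were chosen after seeing the data. With 2 to 4 mice a group and the spread of Ctrl 2, small differences could not be detected.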

Other observations

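A few interferon-gamma-inducible GTPases outside the list, named after their values were seen, followed Ctrl 2 as well. Tgtp2 had 943 normalized counts in Ctrl 2 and 123 to 419 in the other 13 libraries. Gbp10 had 261 normalized counts in Ctrl 2 and 0 to 61 elsewhere, with 0 in 5 libraries. Gbp6 had 651 normalized counts in Ctrl 2 but 738 in AngII 1, so it did not set Ctrl 2 apart in the same way. Iigp1 had 7847 normalized counts in Ctrl 2 and 1566 to 3900 in the others.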
